A study of Mus musculus with 12 samples.

Results

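The epidermal differentiation complex is a cluster of genes that keratinocytes switch on as they leave the basal layer, and its envelope genes encode the proteins that are cross-linked beneath the plasma membrane into the cornified envelope, the outer shell of dead surface cells. They were followed here through the probes of a two-colour Agilent array whose gene name begins with Lce (late cornified envelope proteins) or Sprr (small proline-rich proteins), or is one of Flg, Flg2, Lor, Ivl, Hrnr, Rptn, Tchh, Tchhl1, Crnn, Lelp1, Crct1 and Kprp. The rule named 47 genes with 55 probes. Of these, 45 genes with 52 probes were kept because the skin signal cleared the scanner's test against background on 3 or more of the 12 arrays. The whole array held 39429 distinct probes, and 28838 of them, under 22088 gene names, passed the same filter.

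Skin of male C57BL/6 mice about 8 weeks old was compared in 4 groups of 3 biological replicates. Incised mimic skin carried a sutured incision 1 cm long and received 100 nmol of a mimic of miR-29b into the dermis 72 h after wounding, and incised PBS skin carried the same wound and received the vehicle. Intact antimiR skin was unwounded and received 100 nmol of an inhibitor of miR-29, and intact PBS skin was unwounded and received the vehicle. All skin was taken 24 h after the injection. None of the 4 groups received a control oligonucleotide, so effects of miR-29 and of any injected oligonucleotide cannot be told apart. Total RNA of each skin sample was labelled with Cy5 and hybridised against a universal mouse reference RNA in Cy3, and a level is given as the log2 ratio of skin over reference, which can be compared between arrays for one probe but not between probes. The biopsies were whole skin, so fewer keratinocytes of a type and less RNA per keratinocyte cannot be told apart. Keratinocytes were present on every array, since the probes of Lor, Kprp and Flg and probe A_51_P461040 of Crct1 read at least 4.77 log2 units above the reference on all 12.

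In the granular layer, loricrin and filaggrin make up much of the protein load, involucrin is laid down early as a scaffold, small proline-rich proteins bridge other envelope proteins, and late cornified envelope proteins are added last. Transglutaminases join them. The Sprr2 and Lce3 genes are known from mouse and human skin as genes that rise when the barrier is disturbed or the epidermis is inflamed, whereas the Lce1 genes belong to undisturbed cornification. The microRNA-29 family is better known in skin for its collagen targets.

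The family shares 1 seed, which is why a single mimic or inhibitor addresses all its members. The mature sequences below are RefSeq's, and capitals mark bases 2 to 8, the seed. The sequences of the injected oligonucleotides were not used here.
mmu-miR-29a-3p: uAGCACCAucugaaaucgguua
mmu-miR-29b-3p: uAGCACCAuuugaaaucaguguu
mmu-miR-29c-3p: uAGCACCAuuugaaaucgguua
The complement of the seed, TGGTGCT, occurred in 0 of the 52 member probes and in 0.607% of all kept probes. These probes are 60 bases long and cover only a small stretch of each transcript, so this says nothing about the rest of it.

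All 45 genes lie on mouse chromosome 3. In mm9, the build of the array's annotation, the member probes ran from Lor at chr3:91884206-91884265 to Tchhl1 at chr3:93275828-93275887. The kept Sprr2 probes form one block, from Sprr2a2 (chr3:92054627-92054686) to Sprr2k (chr3:92237790-92237849), and the Sprr2 genes are close copies of each other. A probe reads only 60 bases. Over all subfamilies, 15 of the 52 probes matched a member probe of another gene in at least 30 bases, which made 12 such pairs. The closest were Lce1h with one probe of Lce1i, at 56 matching bases, and Lce3c with Lce3b, at 54. Most pairs joined Lce probes, and of the Sprr2 probes only those of Sprr2g, Sprr2i and Sprr2j-ps were in a pair. A further 7 probes, among them all 3 of Sprr2a2, were listed by the array for more than 1 RefSeq transcript, so the signal of Sprr2a2 may include its near-identical neighbours.

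The start-site regions of most Sprr2 genes are alike as well. Of the 45 genes, 40 had a promoter in the RefSeq table (GRCm38.p6). The 200 bases before the start site are shown for 3 Sprr2 genes and Sprr4, which were called higher in incised skin. They are also shown for Sprr2h and Lce1b, which were not called. Sprr2a2 was called higher too and is not shown. Capitals mark 3 motifs searched on both strands: TGANTCA (the site of AP-1, a dimer of Fos and Jun proteins), ATGCAAAT (the octamer, written here as its reverse complement ATTTGCAT) and TATAAA.
Sprr2d, chr3:92338940-92339139, plus strand: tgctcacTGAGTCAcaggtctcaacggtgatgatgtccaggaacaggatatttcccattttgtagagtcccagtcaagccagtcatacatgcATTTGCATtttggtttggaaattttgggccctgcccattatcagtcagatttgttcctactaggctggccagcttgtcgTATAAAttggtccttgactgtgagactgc
Sprr2e, chr3:92351943-92352142, plus strand: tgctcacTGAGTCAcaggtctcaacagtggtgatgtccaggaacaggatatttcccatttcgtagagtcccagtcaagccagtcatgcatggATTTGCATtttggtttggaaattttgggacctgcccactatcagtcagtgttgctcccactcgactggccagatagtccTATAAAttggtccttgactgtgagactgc
Sprr2f, chr3:92364987-92365186, plus strand: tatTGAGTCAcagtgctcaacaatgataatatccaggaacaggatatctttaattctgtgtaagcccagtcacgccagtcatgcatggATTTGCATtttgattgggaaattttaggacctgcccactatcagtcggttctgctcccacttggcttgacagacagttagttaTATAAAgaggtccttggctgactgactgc
Sprr2h, chr3:92385485-92385684, plus strand: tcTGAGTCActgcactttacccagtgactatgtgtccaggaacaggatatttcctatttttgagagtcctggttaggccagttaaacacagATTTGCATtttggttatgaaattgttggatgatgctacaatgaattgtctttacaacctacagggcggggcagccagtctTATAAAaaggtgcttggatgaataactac
Sprr4, chr3:92500494-92500693, minus strand: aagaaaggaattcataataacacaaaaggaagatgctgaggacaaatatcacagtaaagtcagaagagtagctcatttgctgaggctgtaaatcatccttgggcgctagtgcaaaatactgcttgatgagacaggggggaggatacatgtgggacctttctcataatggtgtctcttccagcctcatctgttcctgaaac
Lce1b, chr3:92656927-92657126, minus strand: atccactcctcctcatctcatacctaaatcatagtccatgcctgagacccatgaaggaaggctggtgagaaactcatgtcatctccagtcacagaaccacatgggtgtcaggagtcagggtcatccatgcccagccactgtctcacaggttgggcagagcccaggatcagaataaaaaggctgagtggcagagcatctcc
Over the aligned windows, Sprr2d was 92% identical to Sprr2e and 75.5% identical to Sprr2f, whereas Sprr4 and Lce1b were 41.4% and 44.9% identical to Sprr2d.

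Within 250 bases before the start site, 7 of the 8 Sprr2 promoters held all 3 motifs, and they were the same 7 genes each time: Sprr2b, Sprr2d, Sprr2e, Sprr2f, Sprr2h, Sprr2i and Sprr2k. In these 7, TATAAA began 29 bases before the start site, the octamer 108 to 112 bases before it and an AP-1 motif 193 to 198 bases before it. The remaining Sprr2 promoter, that of Sprr2a2, held none of the 3. Over all 32851 RefSeq promoters, TATAAA was found in 12.4%, the octamer in 1.6% and the AP-1 motif in 6.75%. Among the 13 Lce1 promoters, 0 held the AP-1 motif or the octamer and 2 held TATAAA. The AP-1 motif was also present before Flg, Flg2, Rptn, Crnn, Tchhl1, Ivl, Lor, Sprr1a and Sprr1b. Together with the 7 Sprr2 genes these made 16 of the 40 promoters. The interferon response element, searched as GAAA, any 2 bases and GAAA, was found in 0 of the 40 and in 2.98% of all promoters. The copies of one family share these letters by descent, and a match is not a measured binding site. Whether the motifs bear on the calls was not tested. Sprr2b, Sprr2h, Sprr2i and Sprr2k, not called, carried the same 3 motifs as Sprr2d, Sprr2e and Sprr2f, which were called. These uncalled genes also had positive log2 fold changes in incised against intact PBS skin, from 0.60 in Sprr2b to 2.20 in Sprr2i. Sprr4 and Sprr2a2, the latter called higher on probe A_55_P2048853 only, held none of the 3.

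The arrays measured the members well but were not alike. Between 65.6% and 73.8% of probes were well above background in Cy5 on each array, the median spot was 3.67 to 5.00 times its local background, and no spot was saturated. Of the 52 member probes, 45 were well above background on all 12 arrays, and Sprr2b and Sprr2k passed on only 6. The reference RNA itself was above background on all arrays for 34 of the 52, so that many ratios rest on a dim denominator. Array 3 of intact PBS skin stood apart: it was the lowest of its group in 49 of the 52 probes and the lowest of all 12 arrays in 26. Its median correlation with its own group over all kept probes was 0.918. Adipocyte markers were at their highest on this array, at 0.89 as the median of 10 genes centred on their means, and macrophage markers at their lowest, at −1.52 over 9 genes. Their part in these values was not tested. Array 1 of intact antimiR skin was the highest of its group in all 12 Sprr2 probes and all 6 Lce3 probes. The 12 arrays sat on 3 slides, and no slide held both PBS groups.

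**Figure D1:**
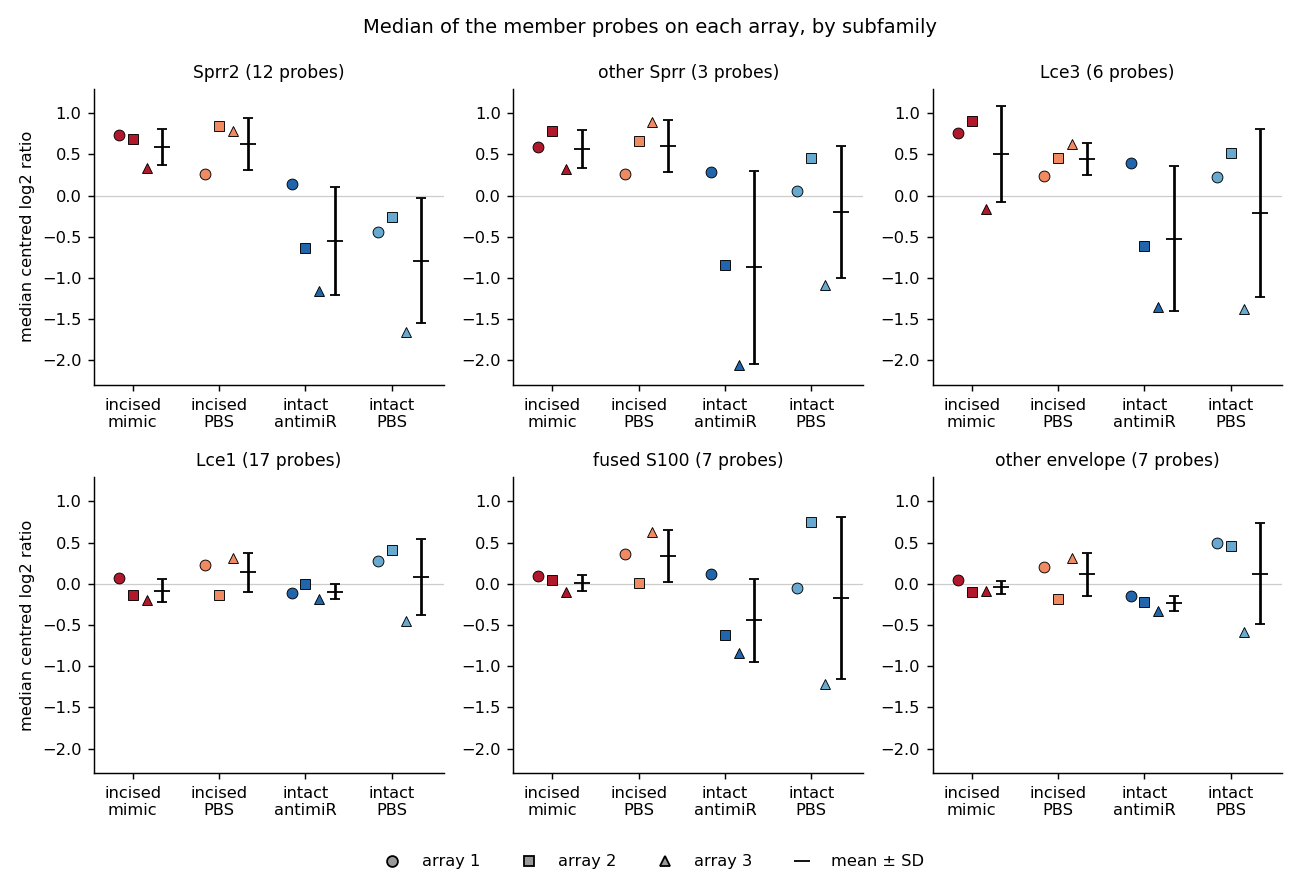
Median over the member probes of each subfamily, after centring each probe on its mean over the 12 arrays (log2 units, y axis), for each array of incised mimic, incised PBS, intact antimiR and intact PBS skin. Bars give mean ± SD over 3 arrays; intact PBS array 3 is the lowest of its group in all 6 panels, and the Sprr2 median is 0.27 to 0.84 on incised PBS arrays and −1.66 to −0.26 on intact PBS arrays.

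The first comparison asked what wounding alone did, setting incised PBS skin against intact PBS skin. Among the members, 5 of the 52 probes were called at an adjusted p under 0.05 (limma, Benjamini-Hochberg over all kept probes), all 5 higher in incised skin, and 4 of these belonged to Sprr2 and 1 was Sprr4, while 10 of the 15 Sprr probes were not called. No slide held both PBS groups, and with slide as a fixed block 0 members were called, and 13 of all probes. The 5 log2 fold changes were then 0.94 to 1.62, all positive. That fit links the PBS groups only through the incised mimic arrays, of which array 1 alone lay on the incised PBS slide. Intact PBS array 3 does not enter its fold changes. Over all tested probes 15.2% were called, 9.58% higher and 5.6% lower, so the share of members called higher was close to that of all probes. With arrays scaled to equal spread, 2 members were called higher and 7 lower. The median log2 fold change of the 52 was 0.29, with 41 positive and 11 negative, beside −0.00 for all probes. Without intact PBS array 3 the median was 0.00, with 26 positive and 26 negative. By subfamily the median was 1.54 over the 12 Sprr2 probes, 0.64 over 6 Lce3 probes and 0.07 over 17 Lce1 probes.

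Sprr2e, a bridging protein of the envelope like the other Sprr2 products, read 3.87, 4.46 and 4.26 on the incised PBS arrays, against 2.54, 2.85 and 0.61 on the intact PBS arrays. Every incised value lay above every intact one, and the spread within intact skin came mostly from array 3. The log2 fold change was 2.20 ± 0.61 (SE, n = 3 per group; limma adjusted p = 0.0345), a 4.58-fold difference. Sprr2f read 3.12, 3.87 and 3.13 in incised PBS skin, against 1.08, 1.76 and 0.72 in intact PBS skin. Its groups were again apart, by 2.19 ± 0.54 (limma adjusted p = 0.021). Sprr2d read 5.61, 5.79 and 5.77 in incised PBS skin, against 3.96, 4.66 and 2.70 in intact PBS skin. The incised arrays were close together and all above the intact ones, and the difference was 1.95 ± 0.48 (limma adjusted p = 0.0214).

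Sprr2a2 was read by 3 probes. Probe A_55_P2048853 gave 1.39, 2.13 and 2.45 in incised PBS skin, against 0.20, 0.32 and 0.09 in intact PBS skin. Its skin signal was well above background on all 3 incised PBS arrays but on only 1 of 3 intact PBS arrays. The intact ratios thus rest on a dim signal and do not give a level relative to the reference. The log2 fold change was 1.79 ± 0.31 (limma adjusted p = 0.00452), the smallest adjusted p of any member. Probe A_55_P2048855 gave 5.65, 5.75 and 5.83 in incised PBS skin, against 5.10, 4.65 and 1.56 in intact PBS skin. This probe moved the same way by a similar amount, 1.97 ± 0.70, but intact array 3 lay far below its partners and it was not called (limma adjusted p = 0.0824). Without that array the difference was 0.87. Probe A_55_P1974976 gave 0.19, 0.12 and 0.14 in incised PBS skin, against 0.10, 0.02 and 0.25 in intact PBS skin, and its groups overlapped.

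The rest of the Sprr2 block leaned the same way without passing the threshold. All 12 probes had a positive fold change, 10 had an unadjusted p under 0.05, against 30.9% of all probes in either direction, and in 9 the groups did not overlap, against 19.2% of all probes with incised skin higher. Sprr2k had no value on intact PBS array 3, so its overlap was not assessed and its fit rests on the other arrays. Sprr2i showed the largest of these differences, with 1.39, 3.65 and 4.14 in incised PBS skin and 1.09, 0.95 and 0.53 in intact PBS skin, or 2.20 ± 0.70 (limma adjusted p = 0.0559). Its incised arrays spread widely, and array 1 was near the intact values. Sprr2g, Sprr2j-ps, Sprr2k, Sprr2h and Sprr2b had log2 fold changes of 0.60 to 1.29 and limma adjusted p of 0.0741 to 0.245. Sprr2b was not well above background on any intact PBS array. Its mean signal in incised PBS skin was 1.52-fold the detection limit taken for those arrays. That value allows for no spread between arrays, and the difference was not called (limma adjusted p = 0.134). Sprr2a1 and Sprr3 had a probe each that was above background on 0 arrays.

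Outside Sprr2, Sprr4 read 3.18, 2.46 and 3.42 in incised PBS skin, against 2.16, 1.53 and 1.25 in intact PBS skin. Its groups did not overlap, and the difference of 1.37 ± 0.39 was called (limma adjusted p = 0.0372). Sprr1b, the Sprr probe with the highest mean ratio, read 5.86, 7.07 and 6.92 in incised PBS skin, against 6.37, 6.61 and 4.84 in intact PBS skin. Here the groups overlapped, with a difference of 0.68 ± 0.62, and Sprr1a behaved alike at 0.65 ± 0.42, neither of them called.

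**Figure D2:**
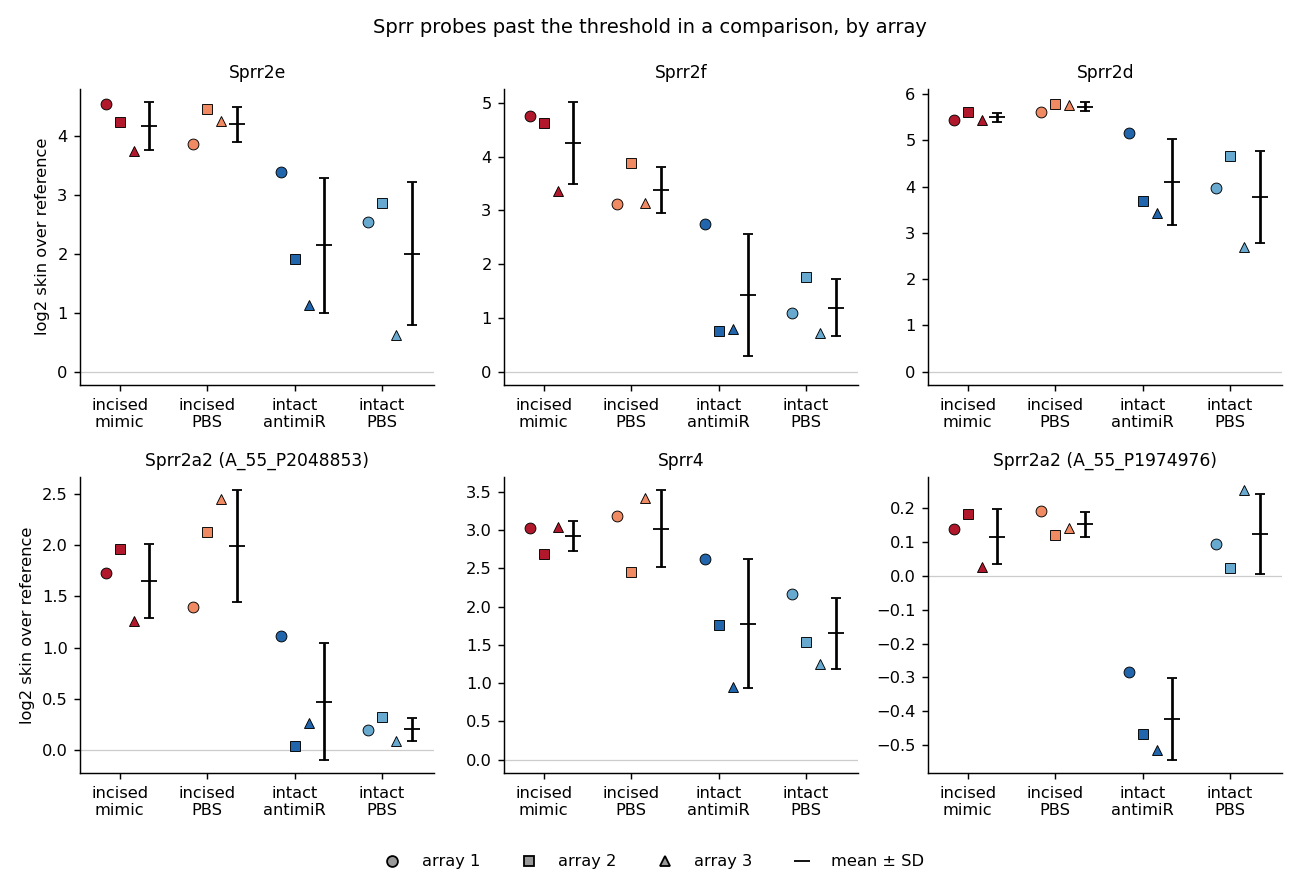
Log2 ratio of skin over reference (y axis) on each of the 12 arrays for the 6 Sprr probes called in any comparison, with bars at mean ± SD of 3 arrays. In 5 panels all incised PBS arrays lie above all intact PBS arrays, the incised mimic arrays overlap those of incised PBS, and probe A_55_P1974976 of Sprr2a2 is lower on the 3 intact antimiR arrays only.

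The number of calls changed when single arrays were left out. It was 3 without incised PBS array 1 and 2 without array 2 or array 3 of incised PBS skin, all higher. Without array 3 of intact PBS skin, 1 of the 5 calls was left, that of Sprr2a2 probe A_55_P2048853 at 1.73, and the other 4 were not called. Their log2 fold changes without that array were 1.95 ± 0.60 for Sprr2f, 1.50 ± 0.51 for Sprr2e, 1.41 ± 0.41 for Sprr2d and 1.17 ± 0.43 for Sprr4, all positive as with it. The median over the Sprr2 probes was then 0.83, with all 12 still positive, while the background was 7.35% called higher and 4.75% lower. Crct1 probe A_55_P1968987 (−0.81), Lce1k (−0.61) and Lce1a2 probe A_55_P2016851 (−0.60) were called lower in that setting. The incised mimic arrays 2 and 3 and the intact PBS arrays 1 and 2 shared a slide, and between these the Sprr2 median was higher in incised mimic skin by 0.86 and the Lce1 median was −0.50, with 2 arrays on each side and no test.

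Lce3 genes, which in human skin are associated with barrier repair, had positive fold changes in 6 of 6 probes and none was called. Lce3e read 2.90, 2.90 and 3.42 in incised PBS skin, against 2.69, 0.07 and 0.62 in intact PBS skin, or 1.94 ± 0.72 (limma adjusted p = 0.0921). Lce3a read 3.52, 4.31 and 4.40 in incised PBS skin, against 2.66, 3.12 and 1.63 in intact PBS skin, or 1.60 ± 0.80 (limma adjusted p = 0.201). In both genes the groups were apart, in Lce3e by little. Lce3f, the Lce probe of lowest mean ratio, read 2.34, 2.29 and 2.82 in incised PBS skin and 1.83, 2.64 and 0.55 in intact PBS skin, with overlapping groups. Lce3b, Lce3c and Lce3d differed by 0.04 to 0.47. The Lce3 median of 0.64 became 0.13 without intact PBS array 3, with 4 positive and 2 negative, −0.06 with scaled arrays and −0.26 with slide as a fixed block.

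In the main fit the Lce1 genes differed little. Over 17 probes of 14 genes, the log2 fold changes ran from −0.85 in Lce1l to 0.36 in Lce1e, 12 were positive and 5 negative, and none was called (limma adjusted p of 0.119 to 0.996). Lce1b, the Lce probe of highest mean ratio and the one measured by 10 spots, read 5.86, 5.60 and 5.91 in incised PBS skin, against 5.79, 5.86 and 5.27 in intact PBS skin. The groups overlapped at 0.15 ± 0.15. The Lce1 median of 0.07 has no settled sign: it was −0.21 without intact PBS array 3 and −0.89 with scaled arrays. With scaled arrays Lce1a2 probe A_66_P111426 (−1.14), both Lce1i probes (−0.90 and −0.89), Lce1k (−1.14) and Lce1l (−1.96) were called lower in incised skin. Spread within a group differed by subfamily. Over the 3 intact antimiR arrays the median SD was 0.13 for Lce1, 0.98 for Lce3 and 0.67 for Sprr2, and over the 3 intact PBS arrays it was 0.49 for Lce1, 0.93 for Lce3 and 0.41 for Sprr2.

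Of the scaffold and structural proteins, loricrin (Lor), the bulk protein of the envelope, read 6.77, 6.38 and 6.79 in incised PBS skin, against 6.79, 6.95 and 6.44 in intact PBS skin. Kprp, a keratinocyte proline-rich protein, read 6.89, 6.49 and 7.05 in incised PBS skin, against 6.91, 7.33 and 6.15 in intact PBS skin. The groups overlapped for both genes, with differences of −0.08 ± 0.15 and 0.01 ± 0.25. Both values moved with the scaling: after the spreads of the arrays were made equal Lor was −1.62 and Kprp −1.51, and both were called lower in incised skin.

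Involucrin (Ivl) was read by 2 probes. Probe A_51_P475748 gave 3.77, 3.28 and 4.03 in incised PBS skin, against 3.90, 3.74 and 2.14 in intact PBS skin. Probe A_55_P2053439 gave 3.48, 3.09 and 3.67 in incised PBS skin, against 3.42, 3.44 and 2.07 in intact PBS skin, and both sets overlapped with differences of 0.43 ± 0.38 and 0.44 ± 0.31. The probes of Crct1, a cysteine-rich C-terminal protein, had fold changes of opposite sign. A_51_P461040 gave 6.79, 6.62 and 6.87 in incised PBS skin, against 6.63, 6.71 and 6.15 in intact PBS skin. A_55_P1968987 gave 0.75, 0.40 and 1.02 in incised PBS skin, against 1.57, 1.50 and 0.61 in intact PBS skin. Their differences were 0.26 ± 0.14 and −0.50 ± 0.23, neither of them called. Lelp1, a late cornified envelope-like protein, gave 1.54, 1.04 and 1.72 in incised PBS skin, against 2.11, 1.96 and 0.82 in intact PBS skin, and its groups overlapped at −0.20 ± 0.30. A second Lelp1 probe was above background on 0 arrays.

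Among the fused S100 proteins, large repeat proteins with a calcium-binding head, none of 7 was called. Filaggrin (Flg), which bundles keratin filaments and yields the moisturising amino acids of the surface, read 6.74, 6.73 and 7.11 in incised PBS skin, against 6.59, 6.33 and 4.77 in intact PBS skin. All incised values were the higher ones, by 0.97 ± 0.47 on average (limma adjusted p = 0.187), and by 0.40 without intact PBS array 3. Repetin (Rptn) had the largest fold change of all members, 2.30 ± 0.94, from 4.73, 4.46 and 5.37 in incised PBS skin against 3.48, 3.49 and 0.67 in intact PBS skin. Its groups did not overlap, intact array 3 lay far below its partners, and it was not called (limma adjusted p = 0.122). Without that array the difference was 1.36.

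Filaggrin 2 (Flg2) read 5.85, 3.01 and 5.80 in incised PBS skin, against 6.24, 6.20 and 5.40 in intact PBS skin, with array 2 of incised PBS skin far below the rest. Hornerin (Hrnr) read 3.95, 3.78 and 4.15 in incised PBS skin, against 4.10, 4.17 and 2.88 in intact PBS skin. Both pairs of groups overlapped. In 14 of the 52 members the groups did not overlap with incised skin higher, against 19.2% of all probes. Of these 14, 9 were Sprr2 probes and the others were Sprr4, Lce3a, Lce3e, Flg and Rptn. With incised skin lower, 0 members were separated, against 15.5% of all probes.

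**Figure D3:**
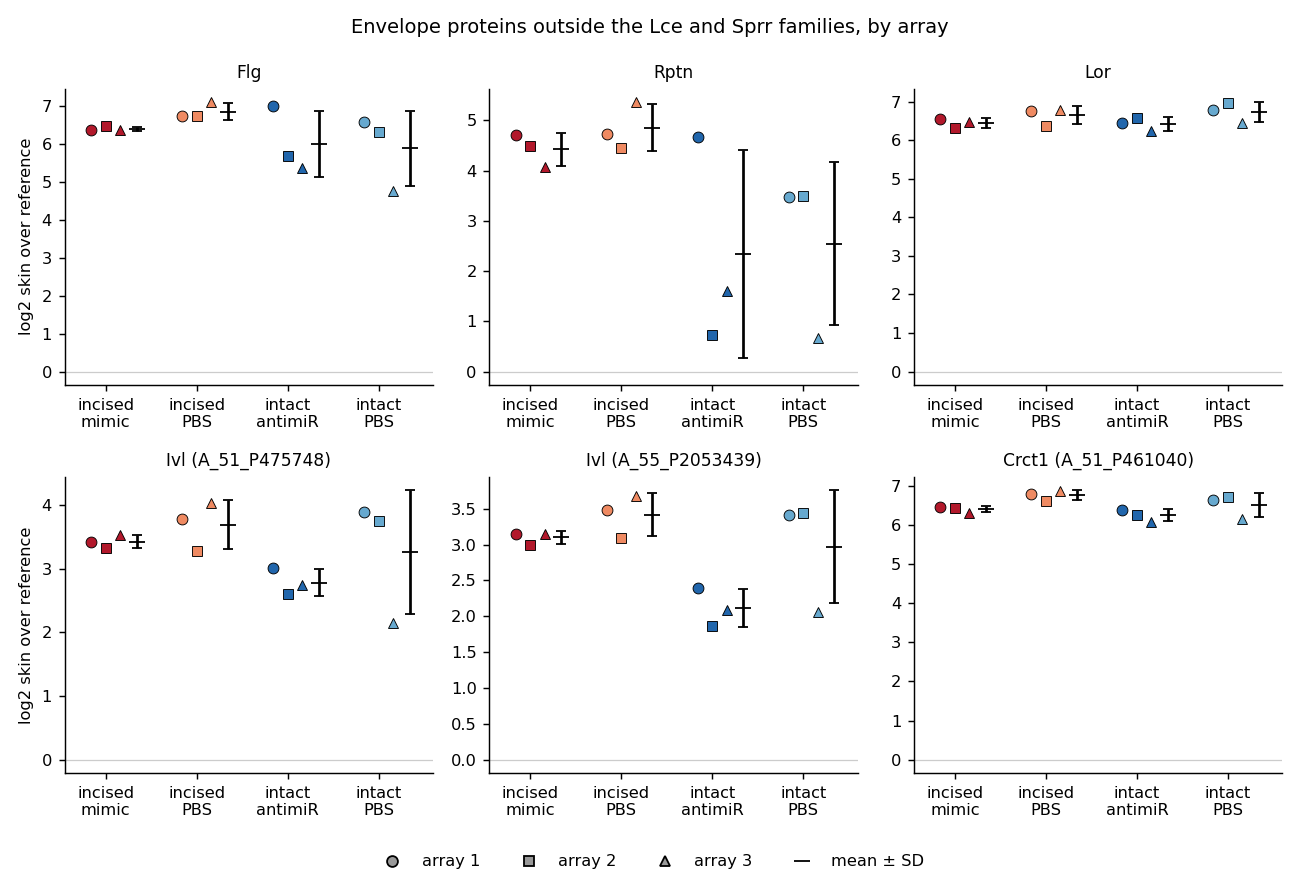
Log2 ratio of skin over reference (y axis) on each array for Flg, Rptn, Lor, both Ivl probes and 1 Crct1 probe, with bars at mean ± SD of 3 arrays. Rptn reads 4.46 to 5.37 on incised PBS arrays and 0.67 to 3.49 on intact PBS arrays, while the Lor groups overlap.

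Trichohyalin (Tchh), which hardens the inner root sheath of the hair follicle, stood out on 1 array. It read 2.19, 2.69 and 2.85 in incised PBS skin, against 2.03, 7.60 and 1.53 in intact PBS skin, and the mimic and antimiR arrays lay between 1.75 and 2.99. Trichohyalin-like 1 (Tchhl1) read 1.82, 2.00 and 2.09 in incised PBS skin, against 1.09, 2.97 and 0.17 in intact PBS skin. Cornulin (Crnn) read 0.53, 0.12 and 1.04 in incised PBS skin, against 0.09, 1.64 and −0.04 in intact PBS skin. Each of the 3 genes was thus highest on intact PBS array 2. On the same array, 15 inner root sheath and hair matrix markers had a median of 1.43 on the centred scale, against −0.35 to −0.02 on the other 11. Their part in these values was not tested. With array 2 of intact PBS skin left out, Tchhl1 was called higher in incised skin at 1.34 (limma adjusted p = 0.0118; 0.0118 to 0.946 over all alternatives), against 0.56 ± 0.53 and no call with it.

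**Figure D4:**
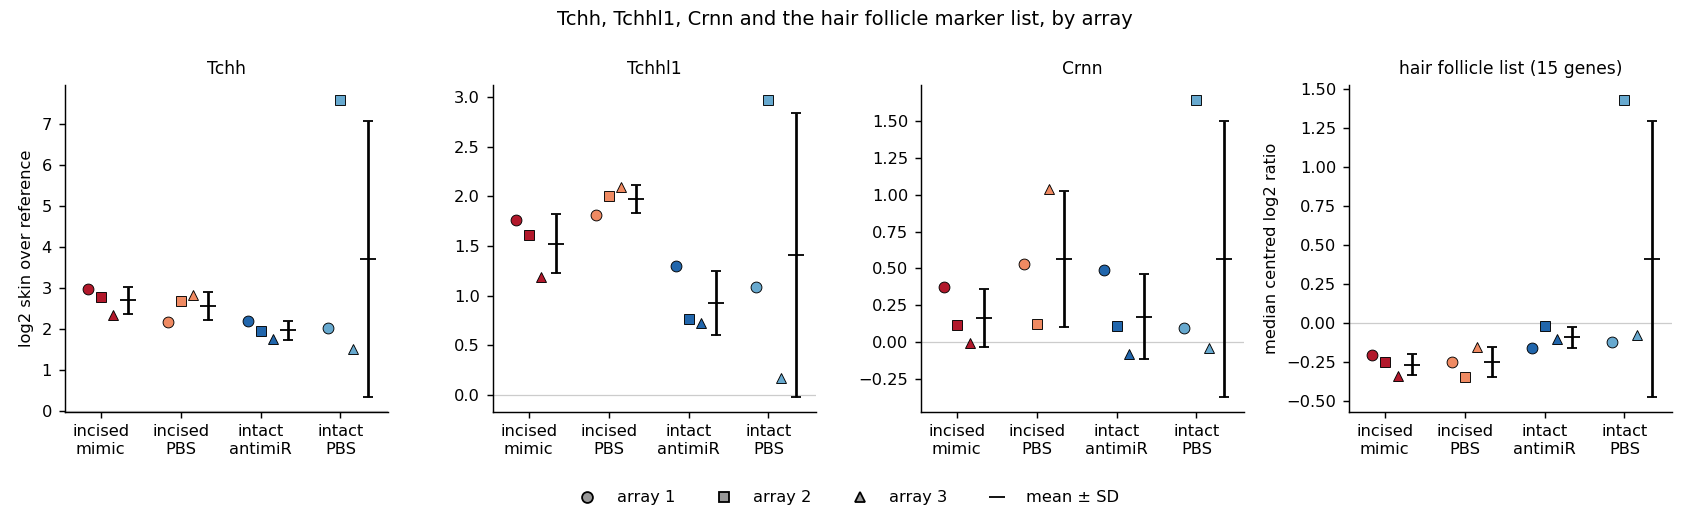
Log2 ratio of skin over reference for Tchh, Tchhl1 and Crnn, and the median centred log2 ratio of 15 inner root sheath and hair matrix markers, on each array with mean ± SD of 3 arrays. Intact PBS array 2 is the highest array in all 4 panels, at 7.60 for Tchh and 1.43 for the marker list.

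Genes around the envelope were read from lists. Of 10 measured genes listed as envelope precursors outside the complex (periplakin, envoplakin, desmoplakin and others), 0 were called between incised and intact PBS skin. The precursor list also held Elf3, which encodes a transcription factor and not a precursor, at 0.42 ± 0.17 (limma adjusted p = 0.113). Of 16 envelope lipid genes, 0 were called. Of 13 crosslinking and filaggrin-processing genes, Tgm3, a transglutaminase, rose by 0.30 ± 0.09 (limma adjusted p = 0.0457). Padi4, which citrullinates proteins, rose by 0.79 ± 0.22 (limma adjusted p = 0.0376), while Pcsk6, a proprotein convertase, fell by 0.49 ± 0.13. Padi1 and Padi3 of the same list differed by 0.19 ± 0.15 and −0.49 ± 0.62 and were not called. Of 13 suprabasal keratin and corneodesmosome genes, only Klk6, a kallikrein protease, was called, at 1.05 ± 0.30 (limma adjusted p = 0.0376). Of 4 wound-activated keratins, all had positive fold changes with a median of 0.74, and Krt16 was called at 1.03 ± 0.30 (limma adjusted p = 0.0447).

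Among 24 regulators of the complex, Klf4, a transcription factor of late differentiation, read 1.87, 1.57 and 2.13 in incised PBS skin, against 3.29, 2.98 and 2.61 in intact PBS skin. It was lower on every incised array, and the difference was −1.10 ± 0.19 (limma adjusted p = 0.00416). Maf read 2.18, 2.23 and 2.26 in incised PBS skin, against 1.41, 1.48 and 1.54 in intact PBS skin, or 0.75 ± 0.10 (limma adjusted p = 0.00138). MAF is known from human epidermis as a regulator of differentiation and is also expressed by macrophages. The 8 basal keratinocyte markers had a median log2 fold change of −0.00, with Itgb1 called higher and Itga3 lower.

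The macrophage and neutrophil marker lists moved with the same comparison. Of 9 macrophage markers 7 were called higher in incised PBS skin, led by Trem2 at 2.79 ± 0.17 (limma adjusted p = 9.64e-05) and Ms4a7 at 2.73 ± 0.36 (limma adjusted p = 0.00131), and their centred median was 0.26 to 0.45 on incised PBS arrays and −1.52 to −0.65 on intact PBS arrays. Of 8 neutrophil markers 3 were called higher, among them S100a9 at 1.93 ± 0.24 (limma adjusted p = 0.00102). Their centred medians were 0.20 to 0.33 on incised PBS arrays and −1.04 to −0.72 on intact PBS arrays. All 8 fold changes were positive, but that of Ly6g was only 0.01. It read 3.49, 2.93 and 2.99 in incised PBS skin, against 3.02, 3.72 and 2.65 in intact PBS skin. The part of both lists in the Sprr2 values was not tested. Of the other lists, 1 of 12 fibroblast markers was called higher, 2 of 11 skeletal muscle markers higher, 0 of 10 adipocyte markers, and 1 of 15 hair markers lower.

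The second comparison asked whether the envelope genes of wounded skin differed between the mimic of miR-29b and its vehicle. Between incised mimic and incised PBS skin 0 of 52 members were called by limma, where 0.503% of all probes were called, 0.177% higher and 0.326% lower. At an unadjusted p under 0.05, 4 members were lower and 0 higher in mimic-treated skin, against 12% of all probes in either direction. The fold changes were small and mostly negative, with a median of −0.20 over the 52 probes, 37 of them negative, beside −0.00 for all probes. By subfamily the medians were −0.23 for Lce1, 0.03 for Lce3, −0.03 for Sprr2, −0.40 for the fused S100 genes and −0.20 for Lor, Ivl, Crct1, Kprp and Lelp1.

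The 4 members with an unadjusted p under 0.05 were Lce1a1 (−0.39 ± 0.15), Crct1 probe A_51_P461040 (−0.36 ± 0.14), Lce1f (−0.34 ± 0.14) and Lce1d (−0.33 ± 0.14), with limma adjusted p of 0.301 to 0.395. Crct1 read 6.46, 6.44 and 6.31 on that probe in mimic-treated skin, against 6.79, 6.62 and 6.87 in incised PBS skin. All mimic values lay below all PBS values. The same held for 8 further members, 5 of them Lce1 probes, and the opposite for 0 members. Over all probes, 11% were separated with mimic lower and 11.9% with mimic higher.

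None of the genes called after wounding was called in mimic-treated wounds. Sprr2d read 5.43, 5.61 and 5.43 in incised mimic skin, against 5.61, 5.79 and 5.77 in incised PBS skin, a difference of −0.23 ± 0.48. Sprr2e read 4.54, 4.23 and 3.74 in incised mimic skin, against 3.87, 4.46 and 4.26 in incised PBS skin, a difference of −0.03 ± 0.61. The groups of both genes overlapped. Sprr2f had the largest difference of any member, 0.87 ± 0.54, with 4.75, 4.62 and 3.37 in mimic-treated skin against 3.12, 3.87 and 3.13 in PBS-treated skin (limma adjusted p = 0.585). Its groups overlapped through array 3 of the mimic group. Sprr2a2 probe A_55_P2048853 read 1.73, 1.97 and 1.26 in incised mimic skin and differed by −0.34 ± 0.31. Sprr4 read 3.02, 2.69 and 3.05 in incised mimic skin and differed by −0.10 ± 0.39.

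Lor read 6.55, 6.31 and 6.48 in incised mimic skin and differed by −0.20 ± 0.15. Flg read 6.37, 6.47 and 6.39 in incised mimic skin, below all 3 incised PBS arrays, and differed by −0.45 ± 0.47 (limma adjusted p = 0.784). Rptn read 4.72, 4.49 and 4.07 in incised mimic skin and differed by −0.43 ± 0.94. Of these, Flg alone was separated, and none was called. Kprp read 6.82, 6.50 and 6.52 and Hrnr 3.55, 3.82 and 3.85 in incised mimic skin. Ivl read 3.42, 3.33 and 3.53 on probe A_51_P475748 and 3.15, 3.00 and 3.14 on probe A_55_P2053439. All these groups overlapped with those of incised PBS skin, at differences of −0.32 to −0.20.

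Among the Lce and Sprr members of highest and lowest mean ratio, Lce1b read 5.64, 5.54 and 5.50 in incised mimic skin, Lce3f 2.81, 3.02 and 1.80, and Sprr1b 6.54, 6.82 and 6.35, with differences of −0.23, 0.06 and −0.05. Crct1 probe A_55_P1968987 read 0.83, 0.76 and 0.78 and Lelp1 1.66, 1.41 and 1.34 in incised mimic skin, at differences of 0.07 and 0.04. The groups of all 5 probes overlapped. Flg2, missing on array 3 of the mimic group, read 5.54 and 5.24 and differed by 0.50 ± 0.74. Tchh read 2.99, 2.78 and 2.34, and Crnn 0.38, 0.12 and −0.01 in incised mimic skin, both overlapping with incised PBS skin. Tchhl1 read 1.77, 1.61 and 1.19 in incised mimic skin, below all incised PBS arrays, and differed by −0.45 ± 0.53.

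Markers of other cells also differed between these groups. Of 12 fibroblast markers 3 were called lower in mimic-treated skin, among them Pi16 at −1.60 ± 0.22 (limma adjusted p = 0.0193) and Clec3b at −1.52 ± 0.24 (limma adjusted p = 0.0287), with centred medians of −0.61 to −0.31 on incised mimic arrays and 0.27 to 0.46 on incised PBS arrays. Skeletal muscle markers were called lower in 3 of 11, among them Pvalb, and 1 macrophage and 1 neutrophil marker were called higher. Their part in the member values was not tested. The epidermal lists gave 0 calls. Only mimic array 1 shared a slide with the incised PBS arrays, and there the member median was −0.01.

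The third comparison asked whether these genes differed in unwounded skin between the inhibitor of miR-29 and its vehicle. Between intact antimiR and intact PBS skin, 1 of 52 members was called, lower in antimiR-treated skin, where 11.1% of all probes were called, 6.03% lower and 5.08% higher. This was Sprr2a2 probe A_55_P1974976, which read −0.28, −0.47 and −0.52 in intact antimiR skin, against 0.10, 0.02 and 0.25 in intact PBS skin. All antimiR arrays lay lower, and the difference was −0.55 ± 0.09 (limma adjusted p = 0.00333). The call was lost with only the groups compared and in the skin (Cy5) channel alone, where the difference was −0.11. The probe lay within 0.52 log2 units of the reference on every array, and the other 2 probes of the gene did not go with it: A_55_P2048853 differed by 0.27 ± 0.31 and A_55_P2048855 by 0.89 ± 0.70. Both had the opposite sign, so no direction can be given for Sprr2a2 as a gene.

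Across the members the median log2 fold change was −0.18, with 36 of 52 negative, beside −0.00 for all probes. At an unadjusted p under 0.05, 4 members were lower and 0 higher, against 25.2% of all probes in either direction. The genes called higher after wounding were spread widely in antimiR-treated skin. Sprr2d read 5.16, 3.69 and 3.43 in intact antimiR skin, against 3.96, 4.66 and 2.70 in intact PBS skin, so that array 1 lay above and the other 2 within the PBS values. Sprr2e read 3.38, 1.92 and 1.12, Sprr2f 2.74, 0.75 and 0.79, and Sprr4 2.63, 1.76 and 0.95 in intact antimiR skin. None of these 4 was called (limma adjusted p of 0.74 to 0.918).

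Array 1 of the antimiR group was also high for Rptn, which read 4.67, 0.72 and 1.61 in intact antimiR skin, and for Lce3a, which read 4.61, 2.00 and 0.71. Lce3f read 2.37, 0.95 and 0.17 and Sprr1b 6.33, 5.01 and 3.68 in intact antimiR skin, with the same array highest. Flg read 7.0, 5.68 and 5.36 in intact antimiR skin. On these 5 genes the antimiR group spread over a wider range than the mean difference between incised and intact PBS skin, and no difference from intact PBS skin could be detected. Sprr1a differed by −0.94 ± 0.42 (limma adjusted p = 0.195) and Sprr1b by −0.93 ± 0.62.

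The antimiR arrays of involucrin were close together. Probe A_55_P2053439 read 2.39, 1.86 and 2.09 in intact antimiR skin, against 3.42, 3.44 and 2.07 in intact PBS skin, or −0.86 ± 0.31 (limma adjusted p = 0.11). Probe A_51_P475748 read 3.01, 2.60 and 2.74 in intact antimiR skin, against 3.90, 3.74 and 2.14 in intact PBS skin, or −0.48 ± 0.38. In both, arrays 1 and 2 of intact PBS skin lay above all antimiR arrays, and array 3 lay among them on the first probe and below them on the second. Without array 3 of intact PBS skin both probes were called lower in antimiR-treated skin, at −1.31 and −1.04. The call count was then 8, all lower, with both Crct1 probes (−0.86 and −0.43), Lce1c probe A_55_P2135095 (−0.49), Lce1b (−0.46), Lce1a1 (−0.43) and Sprr2a2 probe A_55_P1974976 (−0.48) beside the Ivl probes. The median of the 52 probes was −0.45, with 46 negative, while 6.9% of all probes were called lower and 4.87% higher. Conversely, array 3 was the only intact PBS array on the slide of the antimiR arrays, and against it alone the member median was 0.45 with antimiR higher. Whether array 3 or arrays 1 and 2 represent intact PBS skin cannot be told apart from 3 arrays.

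Lor read 6.45, 6.58 and 6.23 in intact antimiR skin and differed by −0.31 ± 0.15 (limma adjusted p = 0.242). Kprp read 6.58, 6.84 and 6.67, Hrnr 4.03, 3.58 and 3.41, and Lce1b 5.48, 5.39 and 5.22 in intact antimiR skin. Their differences from intact PBS skin were −0.10, −0.05 and −0.28 and none was called. Crct1 read 6.39, 6.25 and 6.08 on probe A_51_P461040 and 0.52, 0.60 and 0.89 on A_55_P1968987 in intact antimiR skin. Lelp1 read 1.71, 1.84 and 2.15 there, with a difference of 0.27 ± 0.30 and overlapping groups. Flg2 read 5.42 and 5.74 with array 3 missing. Tchh, at 2.20, 1.97 and 1.75 in intact antimiR skin, differed by −1.74 ± 1.19, with intact PBS array 2 at 7.60. Tchhl1 read 1.3, 0.76 and 0.72 and Crnn 0.49, 0.11 and −0.08 in intact antimiR skin, all below that array and overlapping with the other 2.

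Of the surrounding epidermal lists, 1 of 13 crosslinking genes was called, Pcsk6, which fell by 0.63 ± 0.13 (limma adjusted p = 0.0127), and 1 of 24 regulators, Nfe2l2, which encodes the stress regulator NRF2 and fell by 0.31 ± 0.09 (limma adjusted p = 0.0439). The 13 suprabasal genes were all negative with a median of −0.23 and none called, and the 8 basal keratinocyte markers were all negative with a median of −0.21. Macrophage markers were called higher in 5 of 9 in antimiR-treated skin, led by Trem2 at 1.47 ± 0.17 (limma adjusted p = 0.000439), Fcgr1 at 2.49 ± 0.30 (limma adjusted p = 0.000587) and Cd68 at 1.26 ± 0.19 (limma adjusted p = 0.00216), with centred medians of −0.33 to 0.10 on intact antimiR arrays and −1.52 to −0.65 on intact PBS arrays, and neutrophil markers in 2 of 8. Skeletal muscle markers were called lower in 2 of 11, and 0 fibroblast, adipocyte and hair markers were called. Their part in the member values was not tested.

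**Figure D5:**
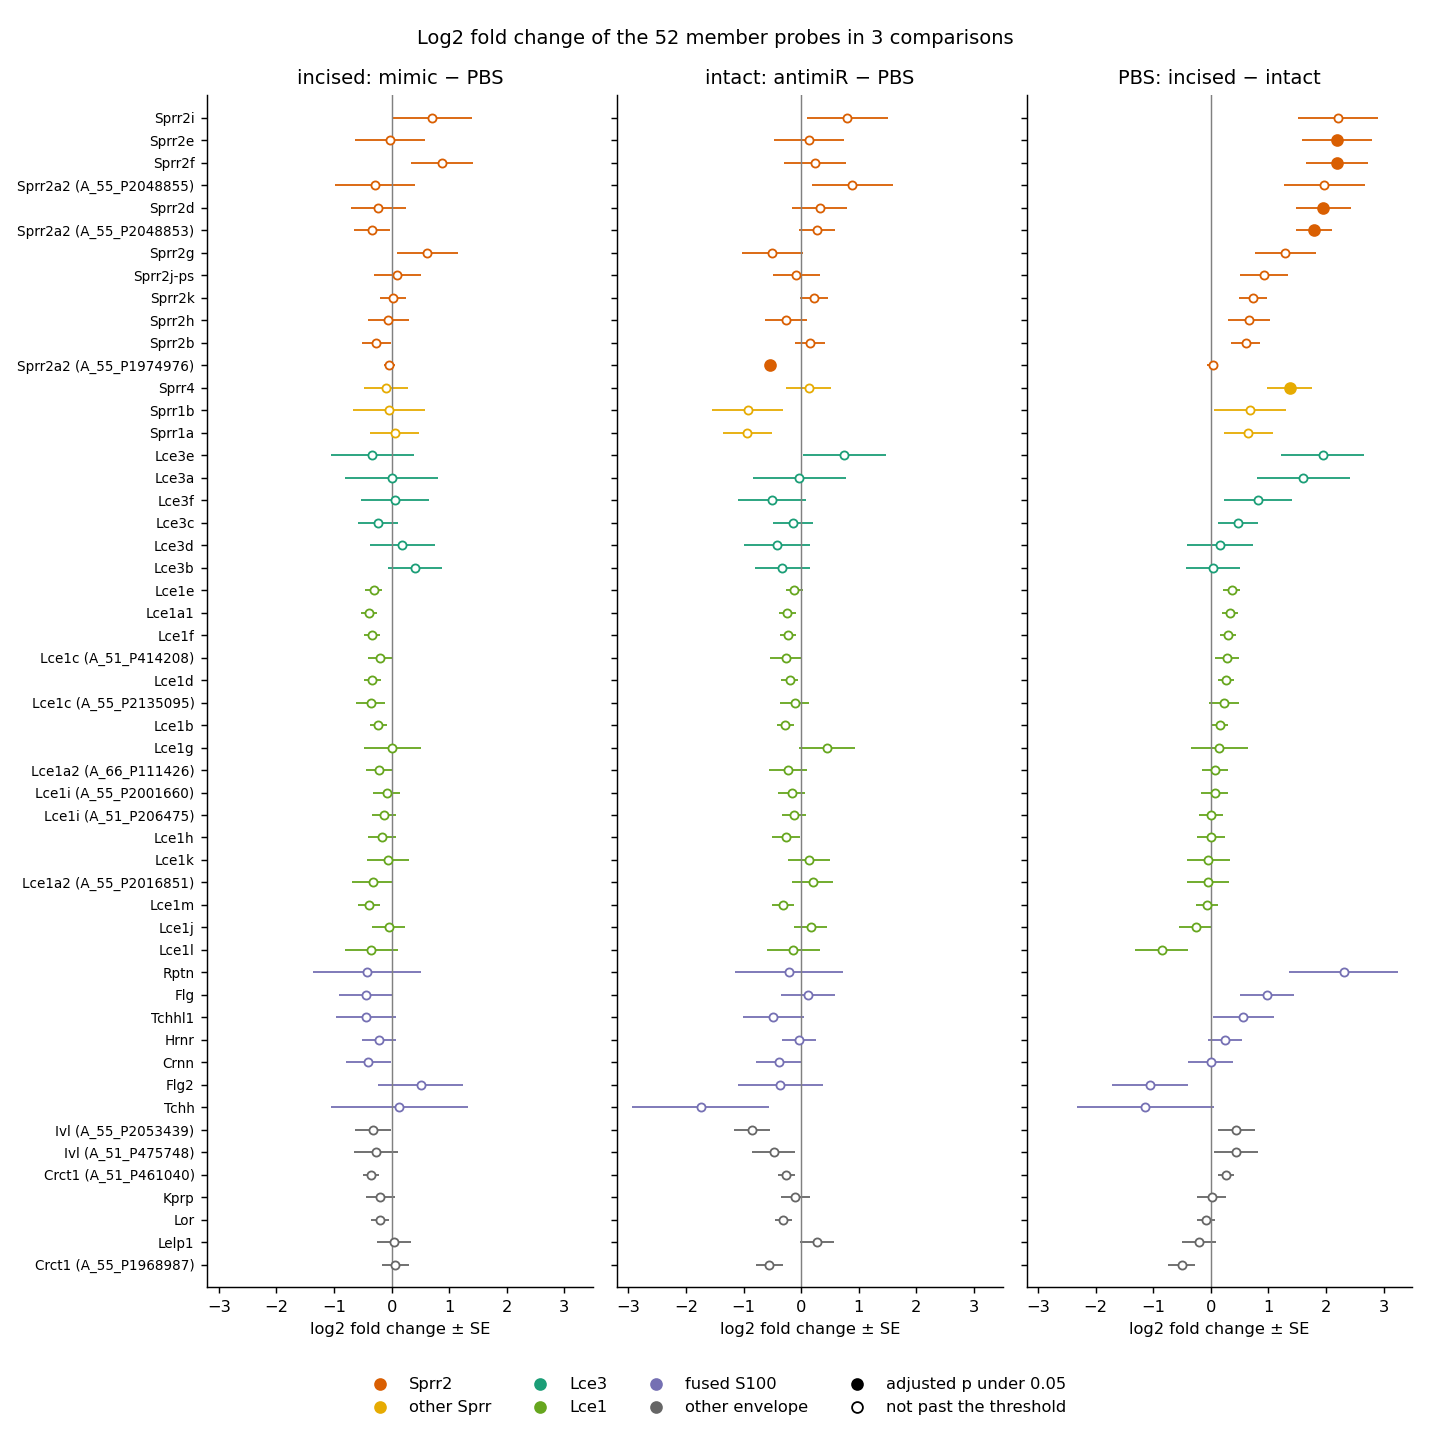
Log2 fold change ± SE (x axis) of each of the 52 member probes in the 3 comparisons, grouped by subfamily, with filled points where the limma adjusted p is under 0.05. Filled points number 0 for mimic against PBS, 1 for antimiR against PBS and 5 for incised against intact skin, where all 12 Sprr2 points lie to the right of 0.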

How the data were processed

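Each of the 12 arrays was one mouse skin sample (Cy5) against universal mouse reference RNA (Cy3), without a dye swap. Per the file headers, spot and background intensity came from Agilent Feature Extraction 11.5.1.1, with probe positions on mm9; the processed intensity in the same files was background-subtracted and dye-normalized by that program. The log10 ratio in those files, per the file headers, is processed red over processed green. A log2 table by gene, also deposited, had columns that correlated positively with the scanner log ratios, at 0.971 to 0.977, so its direction is skin over reference. Its scaling is not given in the sources used here, its column medians were −0.04 to 0.00 and 6.86% to 13.1% of its values were exactly 0, so it served only as an alternative.

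With limma 3.58.1 in R 4.3.3, mean signals were normexp-corrected (offset 50) and loess-normalized within arrays, with control spots at weight 0. Outlier spots were dropped and spots of a probe averaged, which left 1451 of the 28838 kept probes with a missing array. One linear model over all 12 arrays gave 3 contrasts with Benjamini-Hochberg adjustment over all kept probes, and was tested on simulated data. The number of arrays limits the precision. Each array is labelled as a biological replicate, but p-values measure only the spread between these samples. Sequences came from RefSeq tables (GRCm38.p6). Values on every array were given for called members, the members listed by name, and the Lce and Sprr probes of highest and lowest mean ratio. Of the 13 other lists, the genes to name were the 3 of smallest p called in each contrast; other genes named from them were chosen after their values were seen. Members, lists and tests were chosen with earlier results of these data known.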

Additional observations from a re-analysis of the deposited data

How the results depend on the processing

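Under all 20 alternatives the mimic comparison had 0 members called and a member median between −0.28 and 0.01. The Sprr2 median in incised against intact PBS skin was positive in every alternative, from 0.59 to 1.96. The 5 calls of that comparison became 2 with Agilent's processed signals, 9 with arrays scaled to equal spread (2 higher and 7 lower), 1 in the deposited table, 3 with only the groups compared, 0 with slide as a fixed block, 3 with slide as a random block, and 2 to 6 when single arrays were left out. Without incised_PBS replicates 2 or 3 it was 2 each. Its member median of 0.29 became −0.52 with scaled arrays and −0.20 with slide fixed, and Kprp became −1.51 with scaled arrays. In this comparison the fit with slide fixed has incised mimic array 1 as its only link to the incised PBS slide. The single antimiR call became 2 with scaled arrays, 0 in the red channel alone, 0 in the deposited table, 0 with only the groups compared, 7 with slide fixed (6 higher and 1 lower) and 1 to 8 when single arrays were left out. With slide fixed its member median became 0.45; that fit sets the antimiR arrays against intact PBS array 3 alone. The cause of the other changes was not tested. Array correlations of same-numbered deviations ran from −0.42 to 0.30, no comparison had every array correlating best with its own number, and a replicate block gave 0 calls for mimic, 1 for antimiR and 6 for incised against intact skin. A dim reference signal limits the precision of the ratio in the members where it was not above background on all arrays.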
